A study of Mus musculus with 15 samples.

Results

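The genes described here are 9 regulators of mRNA decay, the ZFP36 genes Zfp36, Zfp36l1 and Zfp36l2, the regnase genes Zc3h12a and Zc3h12c, and the BTG and TOB genes Btg1, Btg2, Tob1 and Tob2. They were chosen by name from the 55385 genes of the count table, and the gene symbol of each matched 1 gene identifier. All 9 were among the 13005 genes that passed the filter on low counts, with between 107 and 21109 counts per library.

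Bone marrow-derived macrophages (BMDMs) of BALB/c mice aged 6 wk were left in serum-free DMEM or stimulated with 20 ng/mL recombinant mouse GM-CSF (rmGM-CSF) or with medium conditioned by 4T1 cells, a mouse mammary carcinoma line (4T1 CM), for 2 h before RNA was taken for sequencing. STAT5 fl/fl mice carry Stat5 alleles flanked by loxP sites and no Cre, and STAT5 cKO mice carry the same alleles with Csf1r-iCre, whose promoter is active in macrophages and other myeloid cells and in a subset of splenic lymphocytes. The fl/fl mice, numbered 112 and 113, and the cKO mice, numbered 114, 115 and 116, each gave 1 library per treatment, so that every comparison between genotypes rests on 2 against 3 libraries. A further fl/fl replicate was removed by the authors at quality control, and the cells and mice shared the same strain and alleles in all groups apart from the Cre.

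ZFP36 proteins bind AU-rich elements in the 3′ UTR of short-lived mRNAs, such as those of cytokines, and recruit the CCR4-NOT deadenylase, which shortens the poly(A) tail and starts decay. Regnases are endoribonucleases that cut stem-loops in the 3′ UTR of inflammatory mRNAs. BTG and TOB proteins are adaptors that bind the CAF1 deadenylase subunits of CCR4-NOT and, in the case of TOB, the poly(A)-binding protein, and were first known for slowing cell proliferation. In macrophages several of these genes are themselves induced early after stimulation and act as feedback on the mRNAs induced beside them.

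The libraries held 16016736 to 22883108 counts. Stat5a and Stat5b had at most 4 counts in any cKO library and at least 637 in any fl/fl library. All 7 macrophage markers examined, among them Csf1r, Cd68, Adgre1 and Lyz2, were expressed, whereas Ly6g, Cd3g, Cpa3 and Krt14, which mark neutrophils, T cells, mast cells and epithelial cells, had 0 counts in every library. Others of those lists were present at low counts, led by S100a8 with up to 50 and Cd2 with up to 31 counts, and the summed lists reached at most 2.46 normalized CPM (counts scaled by library size) for neutrophils and 1.32 for T cells. The 3 dendritic cell markers, mainly Zbtb46, summed to 1.72 to 3.86 in fl/fl and 2.32 to 3.04 in cKO with rmGM-CSF, above the 0.506 to 1.37 of the other libraries, and their part in the responses to rmGM-CSF was not tested. The summed level of the macrophage markers, most of it Lyz2, was higher in each cKO library than in each fl/fl library of the same treatment, at 23853 to 24148 normalized CPM against 29977 to 35646 in DMEM, 24063 to 25391 against 32675 to 35758 with rmGM-CSF, and 26477 to 27206 against 33481 to 42693 with 4T1 CM. The part of this sum in the differences between genotypes given here was not tested. In bulk RNA, fewer cells expressing a gene and less of its RNA per cell cannot be told apart.

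The bases upstream of 2 members, Zfp36l1 and Btg1, are shown first, because these were the members whose response to rmGM-CSF differed between the genotypes. RefSeq promoters (build GRCm38.p6) were at hand for 8 of the 9 members, as 9 windows of which Zc3h12c has a pair, and the 250 bases before each annotated start were searched on both strands (the TATA box on the gene's strand only). Capitals mark TATAAA, the TATA box, and TGACG, the core of the cAMP response element, or its reverse complement CGTCA.
Zfp36l1, chr12:80113014-80113263, minus strand: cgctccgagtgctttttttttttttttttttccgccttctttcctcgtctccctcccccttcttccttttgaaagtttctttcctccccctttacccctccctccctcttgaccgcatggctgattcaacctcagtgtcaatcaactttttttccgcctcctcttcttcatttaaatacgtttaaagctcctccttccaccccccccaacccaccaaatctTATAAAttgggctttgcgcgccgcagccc
Btg1, chr10:96616751-96617000, plus strand: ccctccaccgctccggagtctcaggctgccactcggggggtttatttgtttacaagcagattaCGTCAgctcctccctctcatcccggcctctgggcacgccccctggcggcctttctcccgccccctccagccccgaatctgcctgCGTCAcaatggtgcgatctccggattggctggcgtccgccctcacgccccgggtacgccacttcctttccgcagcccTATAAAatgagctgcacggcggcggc
The Zfp36l1 window held TATAAA from 29 to 24 bases before the start, and the Btg1 window held it from 26 to 21 bases before the start. TATAAA was present in 3 of the 9 member windows, the other being that of Tob1, and in 7.59% of 32851 promoter windows of the same length. Neither window held TTCNNNGAA, the GAS element that STAT dimers including STAT5 bind, which is present in 7.02% of all windows. This says only that these letters are not in these 250 bases.

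Among the 8 members with a promoter at hand, all but Zfp36l2, the GAS letters were found only upstream of Zfp36. The match lies from 17 to 9 bases before the RefSeq start, and the last 30 bases before that start are shown with it in capitals.
Zfp36, chr7:28379229-28379258, minus strand: gccacagcctgacTTCTGCGAAccgacagt
This stretch lies inside the longer Zfp36 gene of the count table's annotation. A CArG box, the binding element of serum response factor, was found further upstream in the same promoter, from 58 to 49 bases before the start, and is present in 1.47% of all windows. The full cAMP response element TGACGTCA was found upstream of Btg2, and is present in 1.55% of all windows. The core, which lies within the full element, was found upstream of Btg1, Btg2, Tob1 and Zc3h12c and in 17.8% of all windows. A match is a description of the letters and not a measured binding site.

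After rmGM-CSF, the largest differences between genotypes among the 9 members were those of Zfp36l1 and Btg1, both lower in cKO than in fl/fl BMDMs. After 4T1 CM, the largest was that of Tob1, which was higher in cKO. Zfp36, Zc3h12a and Btg1 rose with either stimulus in both genotypes. Zc3h12c rose with rmGM-CSF in both genotypes and did not pass the test with 4T1 CM in either, and Tob1 fell with each stimulus in both. Calls were made with the edgeR quasi-likelihood test at a Benjamini-Hochberg adjusted p under 0.01 over all 13005 genes, levels are normalized CPM, and differences are log2 fold changes with their standard error (SE).

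**Figure D1:**
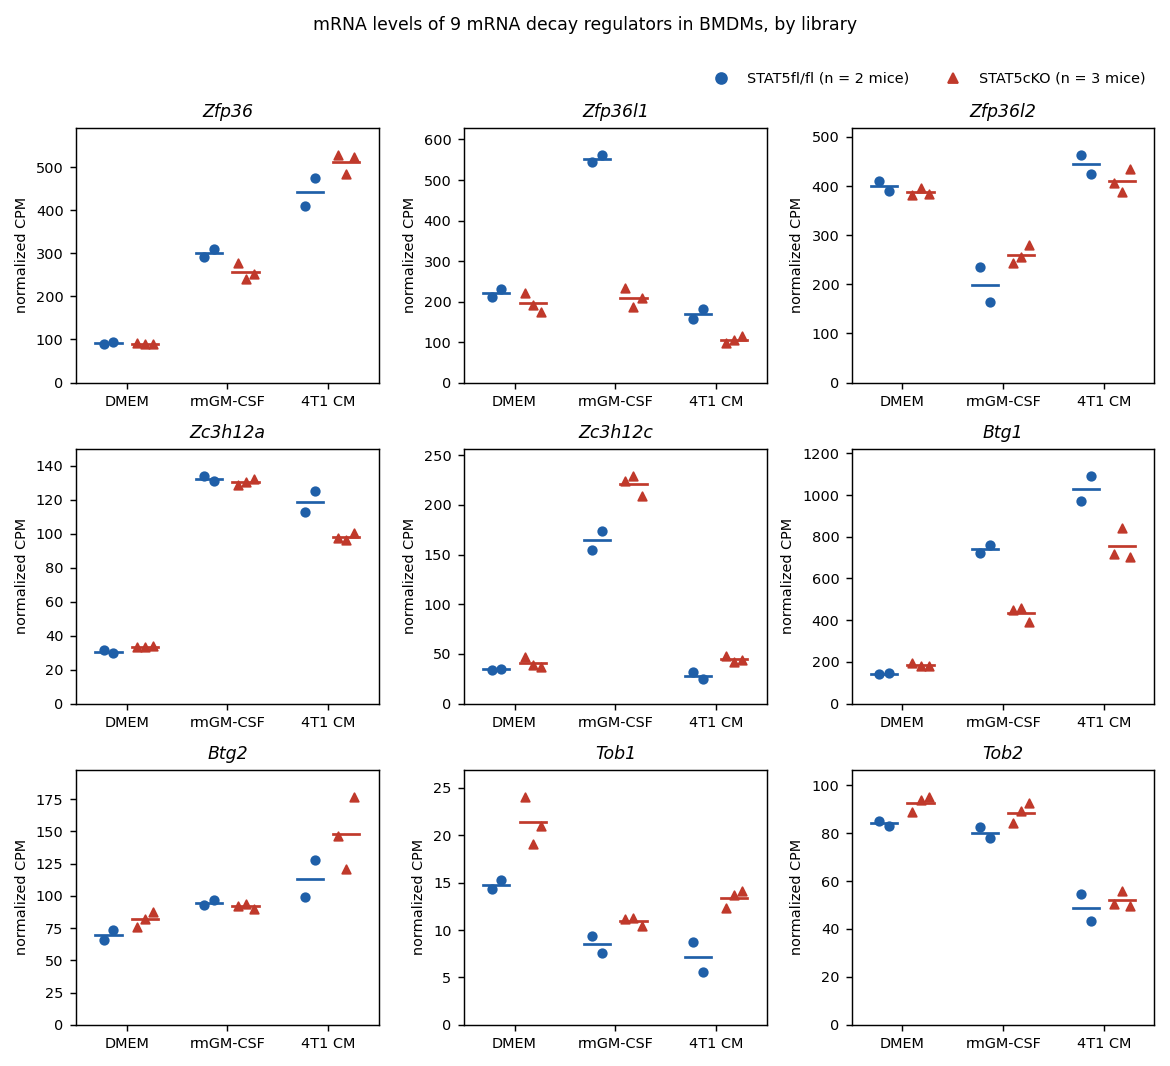
Normalized CPM (vertical axis, linear from 0) of each member in each library, by treatment (horizontal axis), with STAT5 fl/fl as circles (n = 2), STAT5 cKO as triangles (n = 3) and a line at each group mean. Zfp36l1 after rmGM-CSF lies at 544 and 561 in fl/fl and between 187 and 234 in cKO, and Btg1 after rmGM-CSF at 721 and 761 against 391 to 459.

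Zfp36l1 encodes a ZFP36 paralog (ENSMUSG00000021127, chr12:80107754-80113013, minus strand, GRCm38). Its levels in fl/fl mice 112 and 113 were 211 and 230 in DMEM, 544 and 561 with rmGM-CSF, and 158 and 182 with 4T1 CM. In cKO mice 114, 115 and 116 they were 220, 192 and 175 in DMEM, 234, 187 and 209 with rmGM-CSF, and 97.7, 106 and 115 with 4T1 CM. Every fl/fl library with rmGM-CSF thus lay above every other library, whereas the cKO libraries with rmGM-CSF overlapped those in DMEM. Within a mouse, the level with rmGM-CSF was 2.58 and 2.44 times that in DMEM in fl/fl, and 1.06, 0.972 and 1.19 times in cKO. Zfp36l1 rose with rmGM-CSF in fl/fl by 1.33 on the log2 scale (SE 0.11, adjusted p = 5.5e-08, edgeR). In cKO the difference was 0.10 (SE 0.092, adjusted p = 0.44). The difference between these responses was -1.23 (SE 0.15, adjusted p = 3.3e-05) and passed the test. With rmGM-CSF, cKO lay below fl/fl by a log2 fold change of -1.40 (SE 0.10, adjusted p = 2.3e-08), a 2.64-fold lower level. These rmGM-CSF calls held in each of 10 alternatives, with the genotype difference between -1.48 and -1.32.

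With 4T1 CM, Zfp36l1 lay below its level in DMEM in every mouse, and this was called in cKO only. The level fell in cKO by 0.88 on the log2 scale (SE 0.094, adjusted p = 4.7e-07, edgeR), and in fl/fl the log2 fold change of -0.37 (SE 0.11) narrowly missed the threshold, with an adjusted p of 0.011. It passed in 6 of 10 alternatives, which were the mouse as a block (-0.38, adjusted p = 0.0042), no low-count filter, DESeq2, the fit of only those libraries, and without mouse 114 or 116. With 4T1 CM the groups did not overlap and cKO was again lower, at -0.68 (SE 0.10, adjusted p = 0.00025), which was lost without mouse 113 (-0.57, adjusted p = 0.022). The genotype effect was smaller with 4T1 CM than with rmGM-CSF by 0.72 (SE 0.15, adjusted p = 0.0094), close to the threshold. That call was lost without mouse 112 (0.64), 113 (0.80), 115 (0.64) or 116 (0.66), where the adjusted p ranged up to 0.14, and in the fit of only the libraries compared (0.72, adjusted p = 0.011). In DMEM the genotype difference of -0.17 (SE 0.10) did not pass the test (adjusted p = 0.36). From lowest to highest the groups ran cKO with 4T1 CM, fl/fl with 4T1 CM, cKO in DMEM, cKO with rmGM-CSF, fl/fl in DMEM and fl/fl with rmGM-CSF. Only the lowest and the highest were separate from their neighbours, and the 4 between them overlapped in turn.

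Btg1 encodes an adaptor of the CAF1 deadenylase that marks quiescent cells (ENSMUSG00000036478, chr10:96617006-96622809, plus strand). Its levels in fl/fl mice 112 and 113 were 143 and 145 in DMEM, 721 and 761 with rmGM-CSF, and 970 and 1090.1 with 4T1 CM. In cKO mice 114, 115 and 116 they were 193, 182 and 182 in DMEM, 449.9, 459 and 391 with rmGM-CSF, and 717, 844 and 705 with 4T1 CM. Both stimuli raised Btg1 in every mouse, and the 2 genotypes did not overlap in any treatment, with cKO above fl/fl in DMEM and below it with each stimulus. Within a mouse, rmGM-CSF raised it 5.04 and 5.24 times in fl/fl and 2.33, 2.53 and 2.15 times in cKO. The response to rmGM-CSF was 2.36 (SE 0.098, adjusted p = 4.3e-12, edgeR) in fl/fl and 1.23 (SE 0.077, adjusted p = 1.4e-09) in cKO. The difference between them was -1.14 (SE 0.12, adjusted p = 1.1e-05). It held in all 10 alternatives, between -1.19 and -1.08.

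With rmGM-CSF itself, Btg1 was lower in cKO by a log2 fold change of -0.77 (SE 0.084, adjusted p = 3.7e-06, edgeR), and this too held in all 10 alternatives. The response to 4T1 CM was 2.84 (SE 0.10) in fl/fl and 2.03 (SE 0.079) in cKO, with a difference of -0.81 (SE 0.12, adjusted p = 0.00098). That difference was no longer called without mouse 112 (-0.88, adjusted p = 0.015), 113 (-0.74, adjusted p = 0.053) or 114 (-0.74, adjusted p = 0.010). With 4T1 CM, cKO was lower at -0.45 (SE 0.084, adjusted p = 0.0015), which was lost without mouse 113 (-0.36) or 114 (-0.41) and in the fit of those libraries alone (-0.45, adjusted p = 0.026). In DMEM, cKO was 0.36 (SE 0.087) above fl/fl with an adjusted p of 0.020, which missed the threshold and passed it with DESeq2 (adjusted p = 0.0016), with no low-count filter (7.1e-05) and in the fit of the DMEM libraries alone (0.0050). In the order of levels, fl/fl with rmGM-CSF and cKO with 4T1 CM overlapped, and the other neighbours were separate.

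Zfp36 encodes tristetraprolin, the founding member of its family (ENSMUSG00000044786, chr7:28376784-28380253, minus strand). The fl/fl libraries of mice 112 and 113 held 89.7 and 94.4 in DMEM, 292 and 311 with rmGM-CSF, and 411 and 475 with 4T1 CM. The cKO libraries of mice 114, 115 and 116 held 91.9, 89.2 and 90.4 in DMEM, 279, 241 and 252 with rmGM-CSF, and 528, 483 and 524 with 4T1 CM. The 3 treatments were thus fully separate, in the order DMEM, rmGM-CSF and 4T1 CM, and the genotypes overlapped only in DMEM. Zfp36 rose with rmGM-CSF by 1.71 (SE 0.084, adjusted p = 3.7e-11, edgeR) in fl/fl and 1.51 (SE 0.068, adjusted p = 1.8e-11) in cKO. With 4T1 CM it rose by 2.27 (SE 0.085, adjusted p = 9.8e-13) in fl/fl and 2.50 (SE 0.070, adjusted p = 1.4e-14) in cKO. The genotype differences were -0.23 (SE 0.074, adjusted p = 0.042) with rmGM-CSF and 0.21 (SE 0.074, adjusted p = 0.071) with 4T1 CM, neither past the threshold. Their contrast of 0.44 (SE 0.10) also missed it (adjusted p = 0.030), and passed with the mouse as a block (0.44, adjusted p = 0.0038), with DESeq2 (0.0037) and with no low-count filter (0.0023).

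Zfp36l2, the paralog best known from lymphocyte and blood progenitor development (ENSMUSG00000045817, chr17:84183931-84187947, minus strand), went against Zfp36 with rmGM-CSF. Levels in fl/fl mice 112 and 113 were 411 and 389 in DMEM, 235 and 163 with rmGM-CSF, and 463 and 425 with 4T1 CM. Mice 114, 115 and 116 (cKO) gave 382, 396 and 383 in DMEM, 244, 256 and 280.0 with rmGM-CSF, and 407, 388 and 434 with 4T1 CM. The rmGM-CSF libraries were the lowest of all 15 in both genotypes, and the DMEM and 4T1 CM libraries overlapped in cKO. Zfp36l2 fell with rmGM-CSF by 1.01 on the log2 scale (SE 0.12, adjusted p = 2.9e-06, edgeR) in fl/fl and by 0.57 (SE 0.096, adjusted p = 0.00016) in cKO. With 4T1 CM the changes of 0.15 (SE 0.12, adjusted p = 0.31) and 0.081 (SE 0.095, adjusted p = 0.50) did not pass. The genotype difference of 0.39 (SE 0.11) with rmGM-CSF had an adjusted p of 0.020 and did not pass. Without mouse 112 it was 0.67 and passed (adjusted p = 0.00034), as it did with DESeq2 (0.0032) and with no low-count filter (6.9e-06). The rmGM-CSF groups were separate from each other and from the rest, and the 4 groups in DMEM or 4T1 CM overlapped their neighbours.

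Compared per kilobase of summed exon length (normalized RPKM), the balance of the ZFP36 genes differed between the groups. The summed exon length of Zfp36, 3470 bp, covers its whole annotated span with the intron, which lowers its level per length. In DMEM, Zfp36l2 was the highest of the 3, at 113 ± 4.25 RPKM (SD, n = 2) in fl/fl and 110 ± 2.19 (SD, n = 3) in cKO, and made up 53.1% and 54.5% of their sum. With rmGM-CSF in fl/fl, Zfp36l1 was the highest at 185 ± 4.06 (SD, n = 2), with between 54.7% and 58.0% of the sum in each library. In cKO with rmGM-CSF the 3 genes were close, at 74.1 ± 5.61 for Zfp36, 70.1 ± 7.89 for Zfp36l1 and 73.7 ± 5.16 for Zfp36l2 (SD, n = 3), and Zfp36l1 held between 30.5% and 34.3%. Their summed level with rmGM-CSF was 328 ± 6.52 RPKM (SD, n = 2) in fl/fl and 218 ± 12.1 (SD, n = 3) in cKO, without overlap. With 4T1 CM, Zfp36 and Zfp36l2 held 41.1% and 40.6% in fl/fl, and in cKO Zfp36 led with 49.3%. With 2 against 3 libraries these shares are given with no test.

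**Figure D2:**
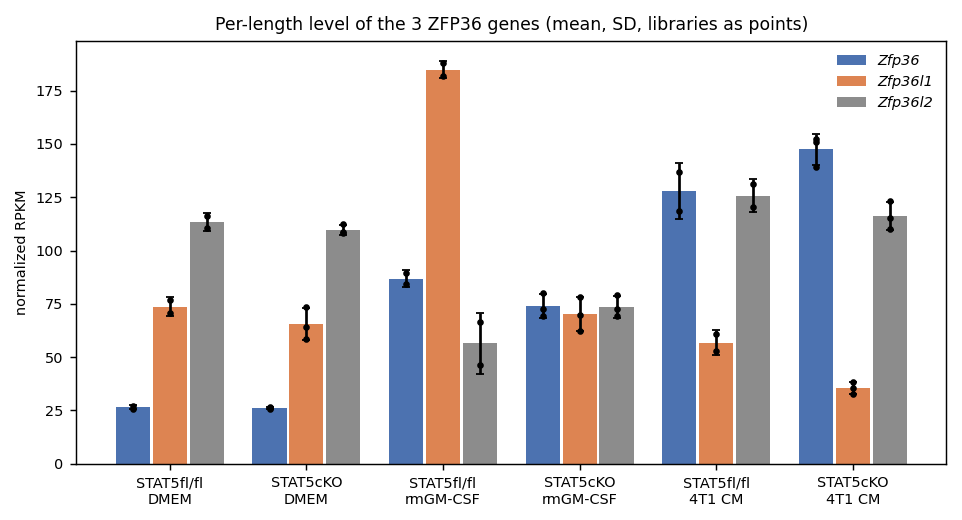
Normalized RPKM (vertical axis, from 0) of Zfp36, Zfp36l1 and Zfp36l2 in each genotype and treatment, as bars at the mean with the SD and each library as a point (STAT5 fl/fl n = 2, STAT5 cKO n = 3). Zfp36l1 stands highest in fl/fl with rmGM-CSF at 185, and the 3 genes lie between 70.1 and 74.1 in cKO with rmGM-CSF.

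Zc3h12a encodes regnase-1 (ENSMUSG00000042677, chr4:125118423-125127840, minus strand). Levels in fl/fl mice 112 and 113 were 31.4 and 29.7 in DMEM, 134 and 131 with rmGM-CSF, and 112 and 125 with 4T1 CM. The cKO levels, in mice 114, 115 and 116, were 33.1, 33.2 and 33.8 in DMEM, 128, 130.1 and 132 with rmGM-CSF, and 97.4, 96.3 and 100.1 with 4T1 CM. Each stimulus raised it in every mouse, and the genotypes overlapped with rmGM-CSF. Zc3h12a rose with rmGM-CSF by 2.11 (SE 0.066, adjusted p = 1.6e-13, edgeR) in fl/fl and 1.96 (SE 0.054, adjusted p = 2.7e-14) in cKO. With 4T1 CM it rose by 1.96 (SE 0.066, adjusted p = 2.8e-13) and 1.55 (SE 0.054, adjusted p = 1.6e-13), and the difference of -0.40 (SE 0.084) between these responses missed the threshold with an adjusted p of 0.012. Under 4T1 CM, cKO was lower by -0.28 (SE 0.056, adjusted p = 0.0028). This was the smallest genotype difference called among the members, and it was lost in the fit of those libraries alone (-0.29, adjusted p = 0.067) and without mouse 113 (-0.20), 114 (-0.27), 115 (-0.26) or 116 (-0.29), where the adjusted p lay between 0.012 and 0.11. In the order of levels only the rmGM-CSF groups of the 2 genotypes overlapped.

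Zc3h12c, which encodes a further regnase (ENSMUSG00000035164, chr9:52111344-52168572, minus strand), was set apart by its treatments. Levels in fl/fl mice 112 and 113 were 34.3 and 34.7 in DMEM, 155 and 174 with rmGM-CSF, and 31.7 and 24.9 with 4T1 CM. Mice 114, 115 and 116 (cKO) gave 47.2, 39.1 and 36.6 in DMEM, 224, 229 and 209 with rmGM-CSF, and 47.7, 42.4 and 44.2 with 4T1 CM. All rmGM-CSF libraries lay above all others, and cKO lay above fl/fl without overlap in each treatment. Zc3h12c rose with rmGM-CSF by 2.25 (SE 0.12, adjusted p = 6.2e-11, edgeR) in fl/fl and 2.43 (SE 0.094, adjusted p = 2.0e-12) in cKO. With 4T1 CM the changes of -0.28 (SE 0.12, adjusted p = 0.059) and 0.13 (SE 0.094, adjusted p = 0.27) did not pass. The level with 4T1 CM was below that with rmGM-CSF by -2.54 (SE 0.12, adjusted p = 3.3e-11) in fl/fl and -2.30 (SE 0.093, adjusted p = 3.0e-12) in cKO. The genotype difference was 0.66 (SE 0.11, adjusted p = 0.00058) with 4T1 CM and was lost without mouse 113 (0.50, adjusted p = 0.039) and in the fit of those libraries alone (0.65, adjusted p = 0.011). With rmGM-CSF it was 0.42 (SE 0.098, adjusted p = 0.0058) and was lost without mouse 112 (0.34, adjusted p = 0.077), 113 (0.51, adjusted p = 0.016) or 115 (0.40, adjusted p = 0.027). From lowest to highest the groups ran fl/fl with 4T1 CM, fl/fl in DMEM, cKO in DMEM, cKO with 4T1 CM, fl/fl with rmGM-CSF and cKO with rmGM-CSF, and the pair of cKO groups without rmGM-CSF were the neighbours that overlapped. The interactions of this gene did not pass (adjusted p between 0.20 and 0.69).

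Btg2, a p53 target and early response gene of the same adaptor family as Btg1 (ENSMUSG00000020423, chr1:134075170-134079120, minus strand), moved less. Levels in fl/fl mice 112 and 113 were 65.8 and 73.7 in DMEM, 92.5 and 97.0 with rmGM-CSF, and 98.7 and 128 with 4T1 CM. The cKO levels, in mice 114, 115 and 116, were 75.5, 82.1 and 87.5 in DMEM, 92.4, 93.3 and 89.6 with rmGM-CSF, and 146, 121 and 176 with 4T1 CM. The 4T1 CM libraries lay above the DMEM libraries of the same genotype, and spread more widely than those of any other treatment. Btg2 rose with 4T1 CM by 0.70 (SE 0.14, adjusted p = 0.00042, edgeR) in fl/fl, lost without mouse 113 (0.58, adjusted p = 0.029), and by 0.86 (SE 0.11, adjusted p = 5.1e-06) in cKO. With rmGM-CSF the change of 0.44 (SE 0.14, adjusted p = 0.016) in fl/fl missed the threshold. It passed in 6 of 10 alternatives, which were the mouse as a block (0.44, adjusted p = 0.0032), no low-count filter, DESeq2, the fit of only those libraries, and without mouse 115 or 116. In cKO it was 0.17 (SE 0.11, adjusted p = 0.27). Within rmGM-CSF and within 4T1 CM the genotypes overlapped, and the other neighbours in the order of levels were separate. No genotype difference of Btg2 passed the test, the nearest being 0.39 (SE 0.12, adjusted p = 0.046) with 4T1 CM. That value was 0.21 without mouse 112, 0.24 without mouse 116 and 0.58 without mouse 113, and was called with no low-count filter (adjusted p = 4.1e-05).

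Tob1, a TOB adaptor known as a brake on proliferation (ENSMUSG00000037573, chr11:94211454-94215495, plus strand), was the lowest of the members per length in every group with a stimulus, with mean levels of 3.12 to 5.85 RPKM, and fell with both stimuli. Levels in fl/fl mice 112 and 113 were 14.3 and 15.3 in DMEM, 9.41 and 7.62 with rmGM-CSF, and 8.76 and 5.53 with 4T1 CM. In cKO mice 114, 115 and 116 they were 24.0, 19.1 and 21.0 in DMEM, 11.2, 11.2 and 10.4 with rmGM-CSF, and 12.4, 13.7 and 14.1 with 4T1 CM. In each treatment cKO lay above fl/fl without overlap, and in the order of levels the 2 stimulated fl/fl groups, which were the lowest, were the neighbours that overlapped. Tob1 fell with rmGM-CSF by 0.80 (SE 0.17, adjusted p = 0.0010, edgeR) in fl/fl, lost without mouse 113 (-0.60, adjusted p = 0.030), and by 0.96 (SE 0.13, adjusted p = 1.8e-05) in cKO. With 4T1 CM it fell by 1.05 (SE 0.17, adjusted p = 6.2e-05) in fl/fl and by 0.67 (SE 0.13, adjusted p = 0.00026) in cKO, the latter lost without mouse 114 (-0.53, adjusted p = 0.014). Under 4T1 CM the genotype difference was 0.90 (SE 0.16, adjusted p = 0.00090), which was 0.61 and no longer called without mouse 113 (adjusted p = 0.034) and was not called in the fit of those libraries alone (0.89, adjusted p = 0.021). The differences of 0.53 (SE 0.14, adjusted p = 0.032) in DMEM and 0.37 (SE 0.16, adjusted p = 0.13) with rmGM-CSF did not pass.

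Tob2, the paralog of Tob1 (ENSMUSG00000048546, chr15:81848272-81858796, minus strand), fell with 4T1 CM only. Levels in fl/fl mice 112 and 113 were 85.0 and 83.1 in DMEM, 82.6 and 77.8 with rmGM-CSF, and 54.5 and 43.2 with 4T1 CM. In cKO mice 114, 115 and 116 they were 88.7, 93.9 and 94.9 in DMEM, 84.1, 89.0 and 92.4 with rmGM-CSF, and 50.4, 55.8 and 49.5 with 4T1 CM. All 5 libraries with 4T1 CM lay below the other 10, of which fl/fl with rmGM-CSF was the lowest group and the other 3 overlapped their neighbours. Tob2 fell with 4T1 CM by 0.78 (SE 0.092, adjusted p = 2.0e-06, edgeR) in fl/fl and by 0.83 (SE 0.075, adjusted p = 6.0e-08) in cKO. The changes with rmGM-CSF were -0.068 (SE 0.091, adjusted p = 0.59) and -0.064 (SE 0.073, adjusted p = 0.54). Its genotype differences, of at most 0.14, and its interactions did not pass.

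Per length, the balance within the other families was compared in the same way, with no test. Btg1 made up between 37.4% and 38.7% of the summed RPKM of the BTG and TOB genes in the fl/fl libraries in DMEM, 73.6% ± 0.704 (SD, n = 2) after rmGM-CSF and 79.1% ± 0.323 after 4T1 CM. The cKO shares, in the same order, were 39.9% ± 1.62, 61.4% ± 1.90 and 67.9% ± 5.05 (SD, n = 3). The shares overlapped between genotypes in DMEM and did not with either stimulus. Among the regnase pair, Zc3h12c held 32.2% ± 0.979 (SD, n = 2) in fl/fl and 34.0% ± 3.20 (SD, n = 3) in cKO in DMEM. It held 34.3% ± 2.22 (SD, n = 2) in fl/fl and 41.6% ± 1.44 (SD, n = 3) in cKO with rmGM-CSF, overlapping the DMEM shares in fl/fl and above them in cKO. With 4T1 CM its shares of 9.17% ± 2.03 and 16.1% ± 0.831 lay below those of the other treatments.

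The comparisons between genotypes called 0 of the 9 members in DMEM, where 2.35% of all tested genes were called, 2 members being called with no low-count filter and 1 with DESeq2. At an unadjusted p under 0.05 the DMEM comparison held 2759 genes. With rmGM-CSF 3 of 9 were called, 1 higher and 2 lower in cKO, against 9.93% of all genes. With 4T1 CM 5 of 9 were called, 2 higher and 3 lower, against 7.44%. All 5 calls with 4T1 CM were lost when mouse 113 was left out, with the direction kept, and 3 members were called without mouse 114. The fit of the 4T1 CM libraries alone called 1, Zfp36l1. The median log2 fold change of the members was 0.14, -0.021 and 0.087 in the 3 treatments, and that of all tested genes lay between -4.7e-05 and 0.0096. The interactions called 2 members for rmGM-CSF minus DMEM (3.16% of all genes), 1 for 4T1 CM minus DMEM (1.31%) and 1 for 4T1 CM minus rmGM-CSF (1.43%), the last becoming 2 with the mouse as a block. These comparisons share libraries, so that the calls of a member in them are not independent.

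**Figure D3:**
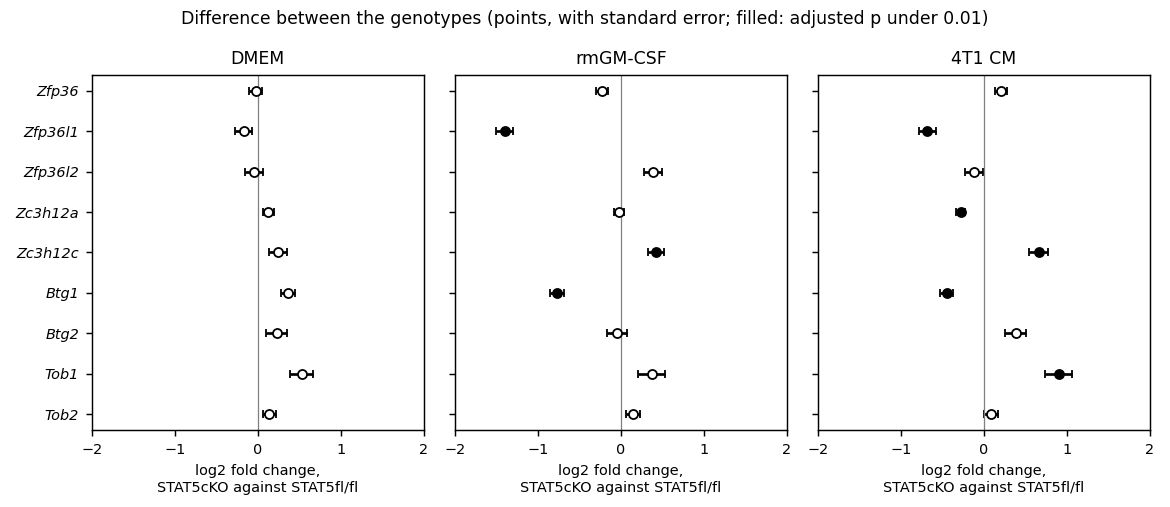
Log2 fold change of STAT5 cKO against STAT5 fl/fl (horizontal axis) for each member (vertical axis) in DMEM, rmGM-CSF and 4T1 CM, as a point with its standard error, filled where the adjusted p was under 0.01. Zfp36l1 lies farthest to the left with rmGM-CSF, at -1.40, and Tob1 farthest to the right with 4T1 CM, at 0.90.

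More members were called between treatments, as were more genes overall. RmGM-CSF against DMEM called 7 of 9 members in fl/fl, 5 higher and 2 lower, where 28.7% of all genes were called. In cKO it called 6, 4 higher and 2 lower, against 23.5%. The member called in fl/fl and not in cKO was Zfp36l1. 4T1 CM against DMEM called 6 members in fl/fl, 4 higher and 2 lower, and 7 in cKO, 4 higher and 3 lower, where 37.2% of all genes were called in each genotype. The 4 higher were Zfp36, Zc3h12a, Btg1 and Btg2 in both. The median log2 fold change of the members with rmGM-CSF was 1.33 in fl/fl and 0.17 in cKO, and with 4T1 CM it was 0.15 and 0.13. The medians of all tested genes lay between -0.0061 and 0.015. With rmGM-CSF the member median was the value of Zfp36l1 in fl/fl and of Btg2 in cKO. Zfp36, Zc3h12a, Zc3h12c and Btg1 rose with rmGM-CSF in both genotypes, so the lower median in cKO does not describe every member. Compared directly, 4T1 CM and rmGM-CSF differed for 6 members in fl/fl (30.9% of all genes) and 8 in cKO (34.1%). In both genotypes Zfp36, Zfp36l2 and Btg1 were higher, and Zfp36l1, Zc3h12c and Tob2 lower, with 4T1 CM than with rmGM-CSF. Zfp36l1 was lower by -1.70 (SE 0.12, adjusted p = 3.1e-09, edgeR) in fl/fl and by -0.98 (SE 0.094, adjusted p = 1.8e-07) in cKO. Btg1 was 0.48 higher in fl/fl, which was lost without mouse 112 (0.52, adjusted p = 0.010) or 113 (0.43, adjusted p = 0.037).

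**Figure D4:**
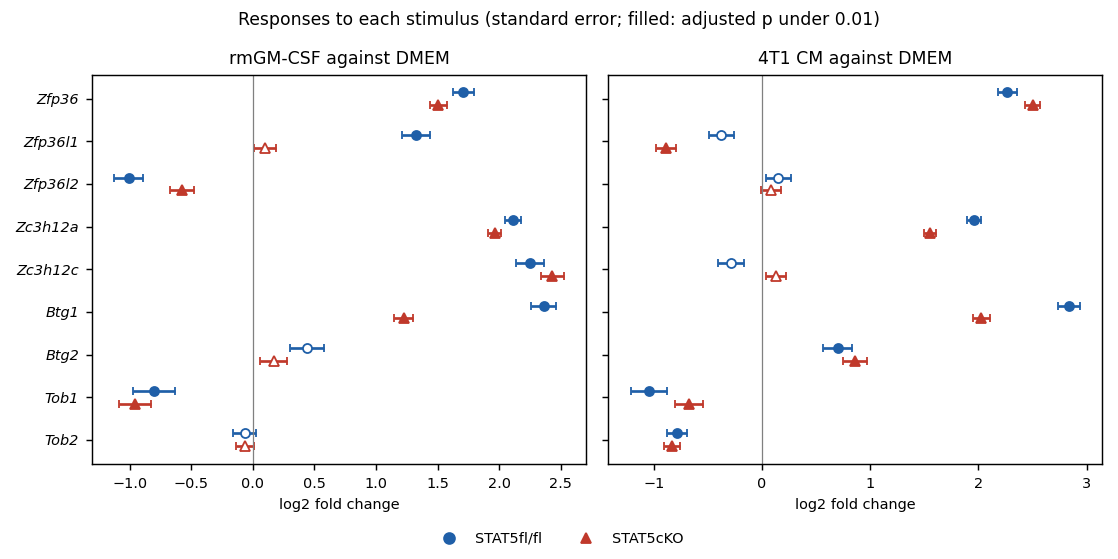
Log2 fold change of rmGM-CSF (left) and 4T1 CM (right) against DMEM on the horizontal axis for each member, with STAT5 fl/fl as circles and STAT5 cKO as triangles, standard errors as bars, and filled symbols where the adjusted p was under 0.01. For rmGM-CSF the genotypes are farthest apart for Zfp36l1 (1.33 against 0.10) and Btg1 (2.36 against 1.23), and Zc3h12c has filled symbols for rmGM-CSF and open ones for 4T1 CM.

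Over the 15 libraries, the genes whose log2 CPM followed each member most closely were Slc2a1 (Pearson r = 0.993) and Myc (0.992) for Zfp36, Tmem159 (0.971) and Rps6kc1 (0.965) for Zfp36l1, and Enc1 and Osgin1 (both 0.964) for Zfp36l2. They were Ehd1 (0.991) for Zc3h12a, and Nfkbiz (0.992) and Kpna3 (0.984) for Zc3h12c. For the BTG and TOB genes they were Abtb2 (0.990) and Map2k3 (0.989) for Btg1, H3f3b (0.945) and Syngr2 (0.938) for Btg2, Napepld (0.949) and Hp1bp3 (0.921) for Tob1, and Npepps and Hexim1 (both 0.983) for Tob2. The libraries fall into 3 treatments, so a high r describes mainly the order of the treatments. Among the members, Zfp36 and Btg1 were closest (r = 0.960), and Zfp36l2 and Zc3h12c most opposed (r = -0.883). The ZFP36 paralogs did not follow each other, with r = -0.250 for Zfp36 and Zfp36l1 and r = -0.764 for Zfp36l1 and Zfp36l2.

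The p38 and MK2 kinases phosphorylate tristetraprolin and stabilise it in a less active form, and DUSP1 dephosphorylates p38. Of these 4 genes, Dusp1, Mapkapk2 and Mapkapk3 rose with rmGM-CSF in fl/fl (75.0% of the list against 28.7% of all genes, median 1.08), and Dusp1 and Mapkapk2 in cKO (50% against 23.5%, median 0.39). Dusp1 rose by 2.17 (SE 0.11, adjusted p = 6.4e-11, edgeR) and 2.25 (SE 0.089, adjusted p = 2.7e-12). Mapkapk3, which encodes the kinase MK3, rose by 1.04 (SE 0.086, adjusted p = 3.8e-08) in fl/fl, the value in cKO being -0.0074 (SE 0.071, adjusted p = 0.95), and the difference between the responses was -1.05 (SE 0.11, adjusted p = 1.1e-05). With rmGM-CSF, cKO was lower for Mapkapk3 (-1.14, adjusted p = 1.2e-08) and higher for Mapk14, which encodes p38 alpha (0.34, adjusted p = 0.0013). With 4T1 CM, cKO was higher for Dusp1 (0.64, adjusted p = 0.00011) and Mapk14 (0.42, adjusted p = 0.00027) and lower for Mapkapk3 (-0.42, adjusted p = 0.0014). The genotype comparison thus called 2 of the 4 with rmGM-CSF and 3 with 4T1 CM, where 9.93% and 7.44% of all genes were called. Of these 3 calls, 1 was left without mouse 112 and in the fit of those libraries alone, and of the 2 with rmGM-CSF, 1 was left without mouse 112, 113 or 114. With 4T1 CM against DMEM, 3 of the 4 rose and Mapk14 fell in fl/fl, and Dusp1 rose and Mapk14 fell in cKO, beside 37.2% of all genes in each genotype. Without mouse 113, 2 of the 4 calls in fl/fl were left.

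Of the members, the ZFP36, BTG and TOB proteins recruit the decay machinery that shortens the poly(A) tail, removes the cap and degrades the mRNA body. A list of 14 genes held deadenylases and non-catalytic partners, Cnot4 among the latter. Of these 14, 0 rose and 5 fell with 4T1 CM in fl/fl (35.7% called, median -0.23), close to the 37.2% of all genes called in that comparison. In cKO 1 rose and 8 fell (64.3% called, median -0.25), against 37.2% of all genes. The medians of all genes were 0.015 and 0.013. These counts fell to 3 in fl/fl without mouse 113 and to 5 in cKO without mouse 114, 115 or 116. Pan3, a subunit of the PAN2-PAN3 deadenylase, fell by 0.60 (SE 0.065, adjusted p = 7.2e-07, edgeR) in fl/fl and by 0.70 (SE 0.053, adjusted p = 6.1e-09) in cKO, and Cnot8, a CAF1 subunit that BTG and TOB proteins bind, fell by 0.56 and 0.45. With rmGM-CSF, Cnot8 and Cnot6l fell and Cnot7 rose in fl/fl, and Cnot8, Cnot6l and Pan3 fell in cKO, so that 21.4% of the list was called in each genotype, against 28.7% and 23.5% of all genes. Of these 3 calls, 1 was left in fl/fl without mouse 112 and 1 in cKO without mouse 115. Between genotypes, Cnot4 was lower in cKO in DMEM (-0.39, adjusted p = 0.0052, edgeR) and with rmGM-CSF (-0.35, adjusted p = 0.0039). That is 7.14% of the list beside 2.35% and 9.93% of all genes, and no other gene of the list was called there. With 4T1 CM edgeR called none of the list, beside 7.44% of all genes. Neither Cnot4 call held when single mice other than 114 (DMEM) or 115 (rmGM-CSF) were left out. None of 15 decapping and 5′ to 3′ decay genes or 10 exosome genes was called between genotypes by edgeR, whatever the treatment. DESeq2 called 1 decapping gene with rmGM-CSF. Of all genes, the genotype comparison called 7.44% after 4T1 CM, 9.93% after rmGM-CSF and 2.35% in DMEM. At such shares lists this short would hold few calls, so the lack of calls does not show equal levels. With rmGM-CSF 3 decapping genes rose in fl/fl and 1 in cKO (28.7% and 23.5% of all genes were called), and Patl1, a decapping activator, fell with 4T1 CM by 0.67 in fl/fl and 0.60 in cKO. The decapping list otherwise held 3 genes that rose with 4T1 CM in fl/fl, and 4 that rose and 1 more that fell in cKO, so that 26.7% and 40% of the list were called against 37.2% of all genes in each genotype. The 4 calls in fl/fl became 2 without either mouse, and the 6 in cKO became 2 without mouse 115 and 3 without mouse 116. The rises with rmGM-CSF were all lost without mouse 112 or 113 in fl/fl, and without mouse 115 or 116 in cKO. The exosome gene Exosc3 rose with each stimulus in both genotypes, by 0.43 to 0.70, and 1 other, Exosc9, rose with 4T1 CM. With rmGM-CSF that is 10% of the list in each genotype, below the 28.7% and 23.5% of all genes. With 4T1 CM it is 20% in each, below the 37.2% of all genes. These few exosome calls fell to 0 or 1 when some of the single mice were left out.

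Of 10 other proteins that bind AU-rich elements or 3′ UTRs, Elavl1, which encodes the stabilising protein HuR, rose with rmGM-CSF by 0.48 (adjusted p = 3.5e-05, edgeR) in fl/fl and 0.40 (adjusted p = 3.4e-05) in cKO. Hnrnpd, which encodes AUF1, rose and Tia1 fell with rmGM-CSF in both genotypes, and between genotypes the single call (9.93% of all genes were called) was Hnrnpd with rmGM-CSF (-0.25, adjusted p = 0.0083), lost without any one of the mice. The 3 calls with rmGM-CSF are 30% of the list in each genotype, near the 28.7% and 23.5% of all genes, and 1 was left without mouse 112 or 113 in fl/fl and without mouse 115 in cKO. With 4T1 CM 1 rose and 3 fell in fl/fl, and 2 rose and 4 fell in cKO, Celf1 among the falls. That is 40% of the list in fl/fl, near the 37.2% of all genes, and 60% in cKO, where it was also 37.2%. The 4 calls in fl/fl became 1 without mouse 113, and the 6 in cKO became 3 without mouse 114 or 115. Of the 3 roquin genes and partners, N4bp1, an endoribonuclease related to the regnases, rose with rmGM-CSF by 1.64 (SE 0.083, adjusted p = 5.3e-11) in fl/fl and 1.35 (SE 0.067, adjusted p = 6.0e-11) in cKO. It also rose with 4T1 CM, by 1.33 and 1.05, where Rc3h1, which encodes roquin-1, fell by 0.57 and 0.49, so that, in each genotype, rmGM-CSF called 1 of the 3 (28.7% and 23.5% of all genes) and 4T1 CM called 2 (37.2%). None of these 3 was called between genotypes by edgeR, where at most 9.93% of all genes were called, and DESeq2 called 1 with rmGM-CSF. A list of 3 is too short for the lack of edgeR calls to show equal levels.

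Other genes of the same families were few. Of 5, Zfp36l3 and Btg4 did not pass the filter. Zc3h12d, a regnase gene, was at 27.9 and 32.5 CPM in fl/fl with rmGM-CSF and 49.5 to 53.5 in cKO, a difference of 0.77 (SE 0.10, adjusted p = 2.8e-05, edgeR). It fell with rmGM-CSF by 0.60 (SE 0.11, adjusted p = 0.00023) in fl/fl and was not called in cKO, and the responses differed by 0.70 (SE 0.14, adjusted p = 0.0038), a call lost without mouse 112, 113, 115 or 116. It was the single one of the 3 tested genes called between genotypes with rmGM-CSF, where 9.93% of all genes were called. Btg3, of the BTG family, was low, at 9 to 85 counts per library. It rose with 4T1 CM in cKO by 1.27 (SE 0.28, adjusted p = 0.00095, edgeR), and its genotype difference of 1.25 (SE 0.32) with 4T1 CM missed the threshold (adjusted p = 0.014), the groups not overlapping. Zc3h12d also rose with 4T1 CM in cKO, by 0.29 (adjusted p = 0.0072), and these 2 calls of 3, beside 37.2% of all genes, became 1 without mouse 114 or 116 or in the fit of only those libraries, and 0 without mouse 115. Zc3h12b was not called in any comparison.

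The mRNAs that ZFP36 proteins are known to bind include many of the cytokines that macrophages make early. Of 14 such mRNAs listed, 11 were tested, and Csf2, Il6 and Il23a did not pass the filter. With rmGM-CSF 10 of the 11 rose in each genotype (28.7% of all genes were called in fl/fl and 23.5% in cKO), with a median of 5.37 in fl/fl and 4.38 in cKO. Tnf, the classic target, rose by 5.28 (SE 0.16, adjusted p = 8.6e-14, edgeR) in fl/fl and 4.92 (SE 0.13, adjusted p = 1.0e-14) in cKO. With 4T1 CM 9 rose and 1 fell in each genotype, against 37.2% of all genes called, with a median of 2.62 and 2.52. The 9 were not all the same genes. Tnf was at 15.7 to 17.5 CPM in DMEM and 29.8 to 35.6 with 4T1 CM in fl/fl. In cKO it was at 21.5 to 26.4 and 20.2 to 31.6, which overlapped. Il10 passed the filter only through the cKO libraries with 4T1 CM, at 1.28 to 1.80 CPM, so its rise there partly reflects the filter. With rmGM-CSF, 6 of the 11 were lower and 2 higher in cKO than in fl/fl (72.7% called against 9.93% of all genes), with a median of -0.75. The lowest adjusted p-values were those of Ccl2 (-3.78, SE 0.19, adjusted p = 2.3e-10), Ier3 (-1.83, SE 0.10, adjusted p = 1.4e-09) and Ccl3 (-1.45, SE 0.11, adjusted p = 2.7e-08). The 2 higher, named after their values were seen, were Cxcl1 (0.62) and Il10, which had 0 counts in both fl/fl libraries and 4 to 8 in the cKO libraries, at least 2.03-fold higher against the floor of 3 counts per library. At that bound the median of the list was also -0.75. With 4T1 CM 1 was higher in cKO (Ptgs2, 2.01-fold, adjusted p = 2.4e-06) and 3 were lower (36.4% called against 7.44% of all genes), with a median of -0.30. These 4 calls became 2 without mouse 112 or 115 and in the fit of those libraries alone. The responses to rmGM-CSF differed between genotypes for 5 of the 11 (45.5% against 3.16% of all genes), all lower in cKO, and for 3 without mouse 114. Those to 4T1 CM differed for none in the main edgeR fit, where 1.31% of all genes were called and 1864 had an unadjusted p under 0.05. They differed for 2 with the mouse as a block and for 3 with DESeq2.

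Of 8 mRNAs known as regnase-1 targets, 4 were tested, and 2 of these, Il1b and Ptgs2, also stand on the ZFP36 list. Il1b, Ptgs2 and Nfkbiz rose with rmGM-CSF in both genotypes, with a median of the 4 of 4.20 in fl/fl and 3.73 in cKO (75% called against 28.7% and 23.5% of all genes). Nfkbiz, which encodes the regulator IκBζ, rose by 3.03 (SE 0.16, adjusted p = 7.3e-11, edgeR) and 3.08 (SE 0.13, adjusted p = 5.0e-12). With 4T1 CM only Il1b and Ptgs2 passed the test, 50% of the list against 37.2% of all genes. Both were lower in cKO with rmGM-CSF (-1.51 and -0.75, where 9.93% of all genes were called), and Ptgs2 was higher in cKO with 4T1 CM (7.44%). Levels of a target mRNA were measured, and its decay rate was not.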

How the data were processed

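BMDM RNA from 5 mice, 2 of them STAT5 fl/fl and 3 STAT5 cKO, was measured by RNA-seq in DMEM, rmGM-CSF or 4T1 CM, as 15 libraries in 6 groups that the library titles give. The number that opens each title was taken as the mouse, since each number has 1 genotype and occurs once in every treatment, although the titles do not say what it marks. The deviations of same-numbered libraries from their group means correlated at 0.0548 to 0.214 in the 15 pairs, 11 of them over 0.1. In fl/fl the deviations of the 2 mice mirror each other, so each value stands there for both mice. The 6 fl/fl pairs, 4 of them over 0.1, thus hold every value in duplicate.

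The authors deposited raw fragment counts per gene. According to the submitters' processing notes and the table's header, reads were trimmed with Trimmomatic 0.33, aligned to GRCm38 with HISAT2 2.1.0 and counted with featureCounts 1.6.2 by strand, for pairs with both ends mapped at a mapping quality of at least 10. Each gene's deposited summed exon length in bp was used for RPKM. Further libraries named in the header, of another conditioned medium, hold no counts there and were not used here.

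Gene symbols matched 55144 of 55385 identifiers. Counts were fitted with edgeR 4.0.16 in R 4.3.3 (relative log expression factors 0.945 to 1.08, CPM over 1 in at least 2 libraries, 6 groups, quasi-likelihood F test, Benjamini-Hochberg adjusted p under 0.01). The filter, the normalization and the threshold follow the paper's methods, in which the genes were compared between genotypes within a treatment. The biological coefficient of variation was 0.0787. Normalized CPM divides counts by the sum over tested genes times the factor. At this depth 3 counts were taken as the floor, and values cover counting and library error together. Replicates of 1 group differed by more than sampling noise, and none were identical.

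Alternatives were TMM, no filter, DESeq2 1.42.0, an adjusted p under 0.05, only the libraries compared, the mouse as a block, a limma 3.58.1 fit with the mouse as a random effect, and each mouse left out. The genes named are the members, Stat5a, Stat5b, markers, up to 3 called genes per list and comparison with the smallest adjusted p, and the 2 genes most like each member. A few genes that this rule takes in are not reported here. Members, lists and motifs were chosen with earlier results of these data known.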

Additional observations from a re-analysis of the deposited data

Results flagged for a closer look

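The responses of 2 of the 9 genes differed between genotypes by a test of the difference itself (edgeR quasi-likelihood interaction, Benjamini-Hochberg adjusted p over 13005 genes). Of all tested genes, 3.16% were called for rmGM-CSF minus DMEM, 1.31% for 4T1 CM minus DMEM and 1.43% for 4T1 CM minus rmGM-CSF. For Zfp36l1 the response to rmGM-CSF was lower in STAT5 cKO BMDMs by a log2 difference of -1.23 (adjusted p = 3.3e-05), with a rise in 2 of 2 STAT5 fl/fl mice of 2.58 and 2.44 times and ratios of 0.972 to 1.19 in the 3 cKO mice. For Btg1 the same difference was -1.14 (adjusted p = 1.1e-05), with a rise in all 5 mice. The response of Btg1 to 4T1 CM differed by -0.81 (adjusted p = 0.00098), a call lost in 3 of 10 alternatives. The genotype effect on Zfp36l1 with 4T1 CM minus that with rmGM-CSF was 0.72 (adjusted p = 0.0094), a call lost in 5 of 10 alternatives. Groups of 2 or 3 libraries were not tested for outlying samples.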

How the results depend on the processing

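Of the 52 member results called, 40 were called in every alternative, 12 were lost in at least 1 and 0 reversed. Of 56 results not called, 12 were called in some alternative and 7 changed sign, all when a mouse was left out. In DMEM, cKO against fl/fl called 2 members at an adjusted p under 0.05, 2 with no low-count filter, 1 with DESeq2 and 1 with only the libraries compared, against 0. With rmGM-CSF it called 5 at an adjusted p under 0.05. With 4T1 CM it called 1 with only the libraries compared, and 0 to 5 when a mouse was left out. The interaction of 4T1 CM minus DMEM called 2 members at an adjusted p under 0.05, with no filter and with DESeq2, and 0 to 1 when a mouse was left out. That of 4T1 CM minus rmGM-CSF called 2 at an adjusted p under 0.05, 4 with no filter, 2 with DESeq2, 0 with only the libraries compared, 2 with the mouse as a replicate block, and 0 to 1 when a mouse was left out. The cause was not tested. The share of all genes called was not taken under each alternative, so these counts stand without that background.

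With a mouse left out, the results that changed sign ranged from -0.36 to 0.044 for Tob1 in rmGM-CSF minus DMEM, -0.073 to 0.27 for Tob2 with 4T1 CM, -0.20 to 0.11, -0.17 to 0.081 and -0.023 to 0.029 for Tob2 in 4T1 CM minus DMEM, 4T1 CM minus rmGM-CSF and rmGM-CSF minus DMEM, -0.016 to 0.51 for Zc3h12c in 4T1 CM minus rmGM-CSF, and -0.061 to 0.013 for Zfp36 in DMEM. The block changed the call of Btg2 with rmGM-CSF and of Zfp36l1 with 4T1 CM in fl/fl and of Zfp36 in the last interaction, and no other call of a member. A mouse has 1 genotype, so no blocked fit of the genotypes within a treatment was possible, and the random effect of the mouse (correlation 0.0681) stood in for it. With 2 fl/fl mice, leaving one out leaves a lone library per group, assumed to vary like the other groups.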
